A study of Sus scrofa with 12 samples.

Results

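The 8 SMAD genes of the pig, SMAD1 to SMAD7 and SMAD9, were followed by RNA sequencing in porcine induced pluripotent stem cells (piPSCs) on their way to endothelial cells and in a porcine endothelial cell line. The genes were chosen by symbol, and all 8 were found among the 19681 gene identifiers of each library, of which 13998 carried a symbol. The cells had been sampled after 2 days with CHIR99021, an activator of Wnt signalling (IEC2), after 2 further days with BMP4, FGF2 and VEGF (IEC4), and on day 12 after culture in endothelial growth medium with VEGF, before any sorting (IEC12). AOC, the endothelial cell line, was the reference. Each of the 4 groups had 3 biological replicates named A, B and C, and neither the animal behind the cells nor the number of piPSC clones is given in the sources used here. Undifferentiated piPSCs and sorted cells were not analysed here.

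SMAD proteins carry signals of the TGF-β family from receptors at the cell surface to the nucleus. Type I receptors for TGF-β and activin phosphorylate SMAD2 and SMAD3, and type I receptors for BMPs phosphorylate SMAD1, SMAD5 and SMAD9. These receptor SMADs join the common SMAD4 to act on genes, while the inhibitory SMAD6 and SMAD7 are themselves targets of the pathway and restrain it, SMAD6 mainly in the BMP branch and SMAD7 in both branches. In endothelium, BMP9 and BMP10 signal through ACVRL1 and the BMP receptor SMADs. RNA levels do not show phosphorylation, by which these proteins are switched on.

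Values are FPKM, fragments per transcript length and library size, so levels of different genes are stated on a common scale. Totals of FPKM ran from 335976 to 457194 per library. The number of reads is unknown, and the depth relative to the other libraries, estimated from the steps between low values, lay between 0.849 and 1.27. Genes that every cell uses were sometimes very low (POLR2A, a subunit of RNA polymerase II, between 0.0579 and 1.33), so a low FPKM does not show that a gene is silent. RPS2, a ribosomal protein gene, was between 0.0475 and 0.192, while RPLP0, another, was between 849 and 5735. Ranks of genes against each other, and shares built on them, therefore describe the deposited FPKM and may not follow amounts of RNA. Replicate A of IEC12 stood apart in its mitochondrial share, 15.0% of FPKM against 7.77% and 9.78% in the other IEC12 libraries. Of 16 endothelial markers 12 were found, and their summed FPKM was 298 to 424 in AOC but 0.425 to 0.704 in IEC12, where CDH5 and TIE1 were listed at 0 in every library. The IEC12 libraries, labelled as induced endothelial cells, thus showed next to none of the defining endothelial transcripts in the deposited FPKM. By flow cytometry, however, the paper reports that a minority of the unsorted cells of that day carried an endothelial surface protein. Its gene, PECAM1, was at 0.0197, 0.0609 and 0.105 FPKM in IEC12 and 119, 131 and 91.7 in AOC. Why this RNA was so low beside the protein was not tested, and the RNA does not show that endothelial cells were absent. The IEC12 libraries are called so only as the name of their day. As these are bulk samples, fewer cells of a type and less RNA per cell cannot be told apart.

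The SMAD set changed its make-up at each step. Among the induced stages SMAD1 and SMAD3 were highest in IEC2 and lowest in IEC12, SMAD2 took the opposite course, and SMAD5 was highest in IEC12. SMAD9 and SMAD6 went from near 0 in IEC2 to several FPKM in IEC4 and IEC12. AOC had SMAD1 at the level of IEC2, SMAD4 below every induced stage, and little SMAD9 or SMAD7. Against IEC4, the lower SMAD4 of AOC (-0.41 on the log2 scale) stood beside a median of -0.45 over all genes.

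**Figure D1:**
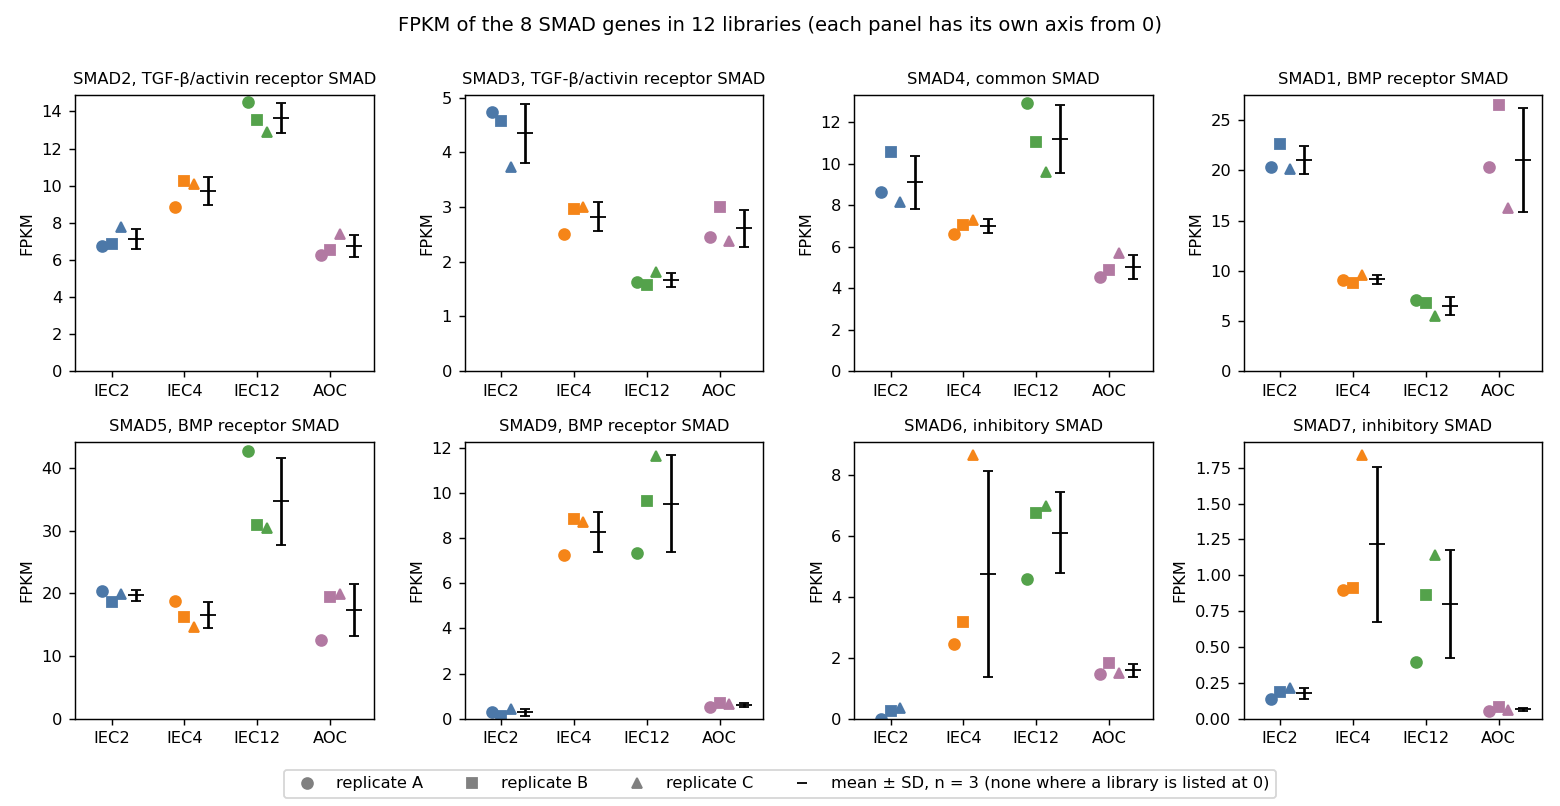
FPKM of the 8 SMAD genes (vertical axes, each from 0) in IEC2, IEC4, IEC12 and AOC. Points are replicates A, B and C and bars are the mean ± SD of 3, left out where a library is listed at 0; SMAD9 and SMAD6 are lowest in IEC2, and SMAD1 has its lowest points in IEC12.

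SMAD2 (ENSSSCG00000004505) and SMAD3 (ENSSSCG00000004952), the receptor SMADs of TGF-β and activin, moved in opposite directions. SMAD2 was at 6.73, 6.88 and 7.77 FPKM in IEC2, 8.84, 10.2 and 10.1 in IEC4, 14.5, 13.5 and 12.9 in IEC12 and 6.23, 6.56 and 7.41 in AOC, naming replicates A, B and C in turn here and below. The 3 induced stages did not overlap, whereas AOC and IEC2 did. SMAD2 was 1.91-fold higher in IEC12 than in IEC2 by mean FPKM, a log2 difference of 0.85 ± 0.14 (SE) with a limma adjusted p of 0.00109. Between neighbouring stages the differences were smaller, 0.40 from IEC2 to IEC4 (limma adjusted p = 0.0496) and 0.45 from IEC4 to IEC12 (limma adjusted p = 0.0269). The step to IEC4 lost its call when any one of the 6 libraries was left out (limma adjusted p from 0.0604 to 0.148). As deposited it stood beside a median of 0.20 over all genes. After median-of-ratios scaling it was 0.17 (limma adjusted p = 0.442) beside a median of -0.01, and it did not pass under equal totals (0.112). The step to IEC12 lost it without IEC4 replicate A (limma adjusted p = 0.0858), IEC4 replicate B (0.0574), IEC12 replicate A (0.0633) or IEC12 replicate B (0.0819), and under equal totals it was 0.26 (limma adjusted p = 0.192).

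SMAD3 was at 4.74, 4.57 and 3.73 FPKM in IEC2, 2.51, 2.97 and 3.0 in IEC4, 1.63, 1.57 and 1.82 in IEC12 and 2.45, 3.0 and 2.39 in AOC. The 3 stages were again apart, this time in descending order, and AOC overlapped IEC4. From IEC2 to IEC12 SMAD3 fell by 1.0 on the log2 scale (SE 0.16, limma adjusted p = 0.00106), and the mean FPKM was 2.60-fold higher in IEC2. The steps between neighbouring stages were -0.48 (limma adjusted p = 0.0441) and -0.52 (limma adjusted p = 0.0289). The first of them lost its call without IEC2 replicate A or B or any library of IEC4 (limma adjusted p from 0.0652 to 0.125), with no filter (0.0578) and with a pseudocount of 0.1 (0.0569). The second lost it without IEC4 replicate B or C or IEC12 replicate A or B (limma adjusted p from 0.0632 to 0.0984) and after median-of-ratios scaling (0.137). The ratio of SMAD2 to SMAD3, which no scaling between libraries can alter, was 1.42 to 2.08 in IEC2, 3.36 to 3.51 in IEC4, 7.09 to 8.89 in IEC12 and 2.19 to 3.11 in AOC.

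The BMP receptor SMADs were the class with the highest summed FPKM and the one in which members traded places. SMAD1 (ENSSSCG00000009040) was at 20.3, 22.6 and 20.1 FPKM in IEC2, 9.09, 8.76 and 9.60 in IEC4, 7.11, 6.82 and 5.46 in IEC12 and 20.3, 26.5 and 16.3 in AOC. Every IEC4 and IEC12 library lay below every library of IEC2 and of AOC. From IEC2 to IEC4 SMAD1 fell by 1.12 on the log2 scale (SE 0.15, limma adjusted p = 0.000374), and by 1.57 from IEC2 to IEC12 (limma adjusted p = 3.81e-05). The step from IEC4 to IEC12 was -0.45 (limma adjusted p = 0.0319). It lost its call without any one library of IEC4, without IEC12 replicate B or without IEC12 replicate C (limma adjusted p from 0.0678 to 0.0960), and after median-of-ratios scaling it was -0.24 (limma adjusted p = 0.292). Against AOC, IEC12 was lower by 1.54 (limma adjusted p = 8.69e-06), while the difference between AOC and IEC2 was -0.02 ± 0.17 (SE, limma adjusted p = 0.912).

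SMAD5 (ENSSSCG00000014319) was at 20.5, 18.7 and 19.9 FPKM in IEC2, 18.8, 16.2 and 14.6 in IEC4, 42.7, 30.9 and 30.5 in IEC12 and 12.5, 19.5 and 19.9 in AOC. Only IEC12 stood clear of the other 3 groups, which overlapped each other. SMAD5 rose by 1.02 on the log2 scale from IEC4 to IEC12 (SE 0.16, limma adjusted p = 0.00114), 2.10-fold by mean FPKM, and it was lower in AOC than in IEC12 by 0.97 (limma adjusted p = 0.000842). The highest value was in IEC12 replicate A, the library with the high mitochondrial share. Without that library the rise from IEC4 was 0.86 (limma adjusted p = 0.00185).

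SMAD5 and SMAD1 were about equal in IEC2, where their ratio was 0.827 to 1.01. The ratio was 1.52 to 2.06 in IEC4 and 4.54 to 6.01 in IEC12. In AOC it ran from 0.616 to 1.22, which overlapped IEC2.

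**Figure D2:**
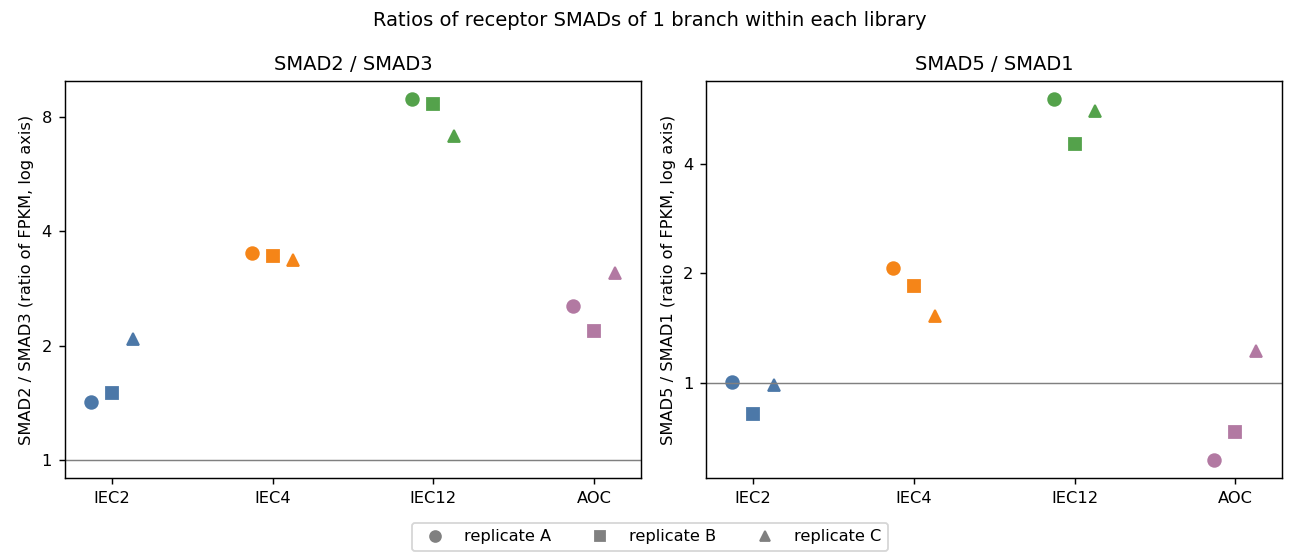
Ratio of FPKM within each library for SMAD2 to SMAD3 (left) and SMAD5 to SMAD1 (right), on log axes, with points for replicates A, B and C. Both ratios are highest in all 3 IEC12 libraries, up to 8.89 for SMAD2 to SMAD3 and 6.01 for SMAD5 to SMAD1.

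SMAD9 (ENSSSCG00000009357), the third BMP receptor SMAD, showed the largest change of the 8 genes. It was at 0.295, 0.110 and 0.412 FPKM in IEC2, 7.24, 8.85 and 8.74 in IEC4, 7.34, 9.63 and 11.6 in IEC12 and 0.508, 0.692 and 0.645 in AOC. IEC4 and IEC12 overlapped, and both lay far above the other 2 groups. Mean FPKM was 30.4-fold higher in IEC4 than in IEC2, and on the log2(FPKM + 1) scale, which understates changes of low genes, the rise was 2.87 ± 0.20 (SE, limma adjusted p = 1.18e-05). From IEC4 to IEC12 the difference was 0.17 ± 0.20 (SE, limma adjusted p = 0.520). AOC was below IEC12 by 2.69 (limma adjusted p = 1.44e-07). AOC and IEC2 did not overlap, but their difference of 0.35 did not pass (limma adjusted p = 0.106), although with a pseudocount of 0.1 it was 1.03 (limma adjusted p = 0.0146) and after median-of-ratios scaling 0.45 (limma adjusted p = 0.0218). SMAD9 passed the filter on low values only through IEC4 and IEC12. With no filter the rise from IEC2 to IEC4 had a limma adjusted p of 0.000100.

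SMAD4 (ENSSSCG00000004524), the common partner of both branches, had its lowest induced values in IEC4 and its highest mean in IEC12. It was at 8.63, 10.6 and 8.14 FPKM in IEC2, 6.62, 7.05 and 7.29 in IEC4, 12.9, 11.0 and 9.62 in IEC12 and 4.55, 4.85 and 5.68 in AOC. AOC lay below every induced library, and IEC4 below every library of IEC2 and IEC12. The rise from IEC4 to IEC12 was 0.60 on the log2 scale (SE 0.16, limma adjusted p = 0.0150), but it lost its call without IEC12 replicate B (limma adjusted p = 0.0508) and under equal totals (0.0612). The difference of IEC4 from IEC2, -0.33, did not pass (limma adjusted p = 0.138), but after median-of-ratios scaling it was -0.55 and passed (limma adjusted p = 0.0487). AOC was below IEC12 by 1.01 (limma adjusted p = 0.000115) and below IEC2 by 0.74 (limma adjusted p = 0.000972).

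SMAD6 (ENSSSCG00000004948), the inhibitor acting mainly on BMP signals, was listed at 0 in IEC2 replicate A and was at 0.258 and 0.357 FPKM in replicates B and C. It was at 2.46, 3.15 and 8.63 FPKM in IEC4, 4.56, 6.75 and 6.97 in IEC12 and 1.45, 1.83 and 1.49 in AOC. IEC2 lay below all other groups, AOC below IEC4 and IEC12, and these last 2 overlapped. The log2 difference of IEC4 from IEC2 was 2.11 ± 0.36 (SE, limma adjusted p = 0.00151), and that of AOC from IEC12 was -1.44 (limma adjusted p = 0.00224). SMAD6 passed the filter without any library of IEC2. With no filter the first of these had a limma adjusted p of 0.00652.

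Much of the spread of SMAD6 came from IEC4 replicate C. That library also had the highest sum of epithelial markers, of which 9 of 10 were found. Their summed FPKM was 532, 695 and 1511 in IEC4 replicates A, B and C, with CDH1, the epithelial cadherin, at 7.51, 6.54 and 42.8. The same sum was 121 to 155 in IEC2, where EPCAM and GRHL2 were listed at 0, 43.2 to 89.1 in IEC12 and 2.52 to 4.22 in AOC, where CDH1, GRHL2 and KRT18 were listed at 0. CLDN6 and KRT8 made up most of the sum in every group, at 612 and 748 FPKM in IEC4 replicate C. From IEC2 to IEC4 the mean of ESRP1 went from 10.1 to 8.37 and that of TFAP2A from 2.59 to 1.10. The other markers found had higher means in IEC4 than in IEC2. The part of epithelial cells in the SMAD6 level was not tested. Without IEC4 replicate C the rise of SMAD6 from IEC2 was 1.67 (limma adjusted p = 0.00154), and the difference of IEC12 from IEC4, 0.44 with all libraries (limma adjusted p = 0.340), was 0.89 (limma adjusted p = 0.0205).

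SMAD7 (ENSSSCG00000004507), the inhibitor of both branches, had the lowest mean FPKM of the members in each group. It was at 0.137, 0.184 and 0.213 FPKM in IEC2, 0.895, 0.912 and 1.84 in IEC4, 0.393, 0.861 and 1.14 in IEC12 and 0.0555, 0.0776 and 0.0615 in AOC. Its highest value was again in IEC4 replicate C, and AOC lay below all 9 induced libraries. Only 2 libraries reached 1 FPKM, so SMAD7 was not tested with the filter. With no filter the rise from IEC2 to IEC4 was 0.89 (limma adjusted p = 0.0186), and AOC was lower than IEC4 by 1.03 (limma adjusted p = 0.000820) and than IEC12 by 0.73 (limma adjusted p = 0.00789). Differences of IEC12 from IEC4 (-0.30, limma adjusted p = 0.342) and from IEC2 (0.59, limma adjusted p = 0.0766) did not pass.

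Summed over the 8 genes, SMAD FPKM had a median of 61.3 in IEC2, 58.1 in IEC4, 81.2 in IEC12 and 53.9 in AOC. The BMP receptor SMADs made up the larger part in every library, with medians of 66.7% in IEC2, 58.1% in IEC4, 59.4% in IEC12 and 69.3% in AOC. SMAD2 and SMAD3 together held between 15.2% and 22.7% in all 12 libraries, although the 2 genes moved apart. SMAD4 held a median of 14.1% in IEC2, 11.7% in IEC4, 13.6% in IEC12 and 9.48% in AOC. The inhibitory SMADs held 0.223% to 0.939% in IEC2, 5.94% to 16.4% in IEC4, 5.44% to 10.1% in IEC12 and 2.87% to 3.13% in AOC. These shares are a description of each library and were not tested. They rest on FPKM compared between genes, with the limit given above.

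**Figure D3:**
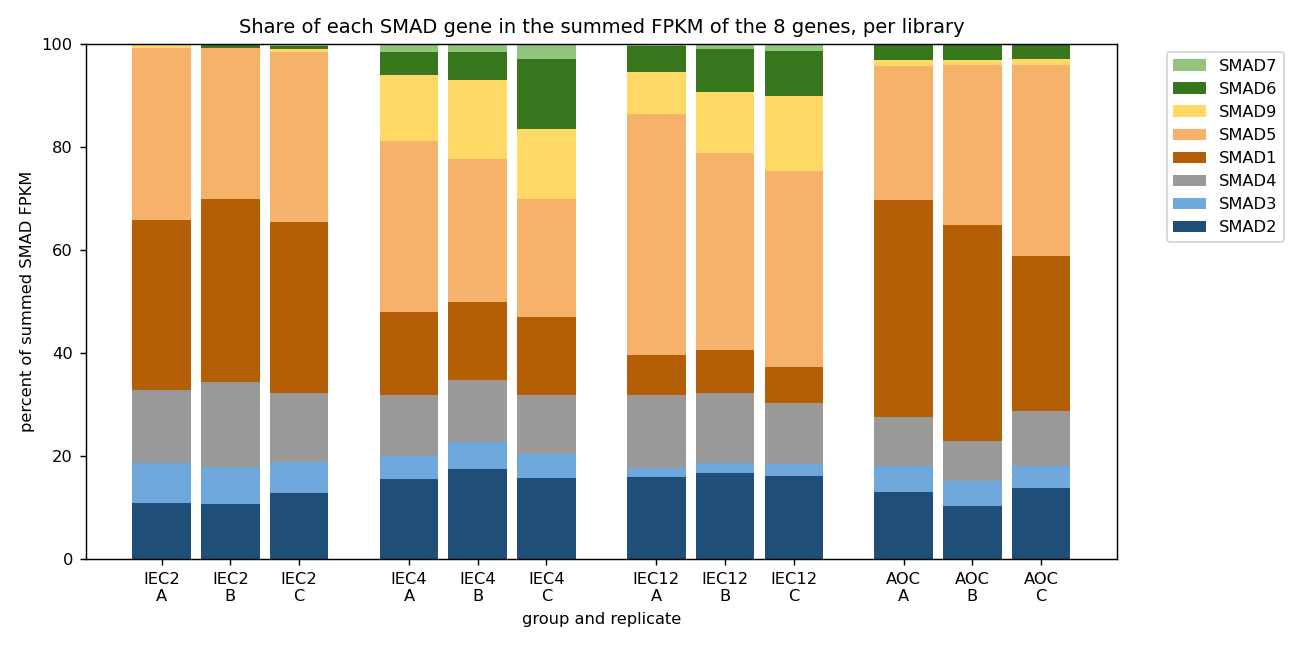
Stacked percent of the summed SMAD FPKM (vertical axis) held by each of the 8 genes in the 12 libraries (horizontal axis, by group and replicate). SMAD1 narrows from IEC2 to IEC12 while SMAD5 widens, SMAD9 and SMAD6 appear from IEC4 on, and AOC is mainly SMAD1 and SMAD5.

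Counted together, 7 of the 8 genes could be tested, and each count is read against the share of all genes tested that passed in the same direction. All shares here and below are of values as deposited, and none is given for other scalings or with libraries left out. From IEC2 to IEC4, 3 rose (SMAD2, SMAD6, SMAD9) and 2 fell (SMAD1, SMAD3), where 24.8% of all genes rose and 12.5% fell. From IEC4 to IEC12, 3 rose (SMAD2, SMAD4, SMAD5) and 2 fell (SMAD1, SMAD3), where 17.3% of all genes rose and 26.9% fell. Over the whole interval from IEC2 to IEC12, 4 rose (SMAD2, SMAD5, SMAD6, SMAD9) and 2 fell (SMAD1, SMAD3), where 24.2% of all genes rose and 19.3% fell. Leaving out 1 library moved the first of these counts from 5 to between 3 and 4 and the second from 5 to between 1 and 4, the lowest without IEC12 replicate B. The third stayed at 6 whichever library was left out.

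The endothelial line was compared with each induced stage in turn. AOC was higher than IEC2 for SMAD6 and lower for SMAD3 and SMAD4, 1 and 2 genes, where 26.7% of all genes were higher and 37.1% lower. Under equal totals SMAD2 and SMAD5 were lower too, which made 5 calls. It was higher than IEC4 for SMAD1 and lower for SMAD2, SMAD4, SMAD6 and SMAD9, where 22.1% of all genes were higher and 47% lower. Against IEC12 all 7 tested genes differed, SMAD1 and SMAD3 being higher in AOC and SMAD2, SMAD4, SMAD5, SMAD6 and SMAD9 lower, where 22.4% of all genes were higher and 36.2% lower. That count was 6 without AOC replicate B or without IEC12 replicate B, when SMAD3 did not pass (limma adjusted p = 0.101 and 0.0740). The 3 comparisons share the AOC libraries.

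The median of all genes was itself off 0 in 5 of the 6 comparisons by over 0.1 on the log2 scale. It was 0.20 from IEC2 to IEC4, -0.15 from IEC4 to IEC12, 0.03 from IEC2 to IEC12, and -0.20, -0.45 and -0.21 for AOC minus IEC2, IEC4 and IEC12. Beside a median of -0.45, the lower SMAD2 (-0.47) and SMAD4 (-0.41) of AOC against IEC4 did not stand apart from the general shift. After median-of-ratios scaling, SMAD2 was at -0.00 (limma adjusted p = 0.995) and SMAD4 at 0.04 (limma adjusted p = 0.856), while SMAD1 and SMAD9 kept their calls. SMAD4 in that comparison also lost its call without AOC replicate A or B or IEC4 replicate B or C (limma adjusted p from 0.0671 to 0.0972). SMAD6, lower in AOC than in IEC4 by 1.0 as deposited (limma adjusted p = 0.0155), did not pass after that scaling (0.0727) or with a pseudocount of 0.1 (0.0572). Without IEC4 replicate C its difference was -0.55 (limma adjusted p = 0.0366). SMAD3 in AOC against IEC2 did not pass after median-of-ratios scaling (limma adjusted p = 0.0516).

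The study set limits for undifferentiated piPSCs against AOC, a p and an adjusted p under 0.001 with an absolute log2 fold change above 3. Applied here to other comparisons and to log2(FPKM + 1), which understates changes of low genes, they were met by 1 SMAD gene in 1 comparison. SMAD9 rose by 3.04 from IEC2 to IEC12 (limma adjusted p = 4.92e-06), where 1.22% of all genes met the limits in either direction. No SMAD gene met them from IEC2 to IEC4, where 1.18% of all genes did, or from IEC4 to IEC12, where 0.939% did. The same held for AOC against IEC2 (5.47% of all genes), IEC4 (5.17%) and IEC12 (4.41%). SMAD9 stayed under the limit from IEC2 to IEC4 at 2.87 on this scale, although its mean FPKM differed 30.4-fold.

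**Figure D4:**
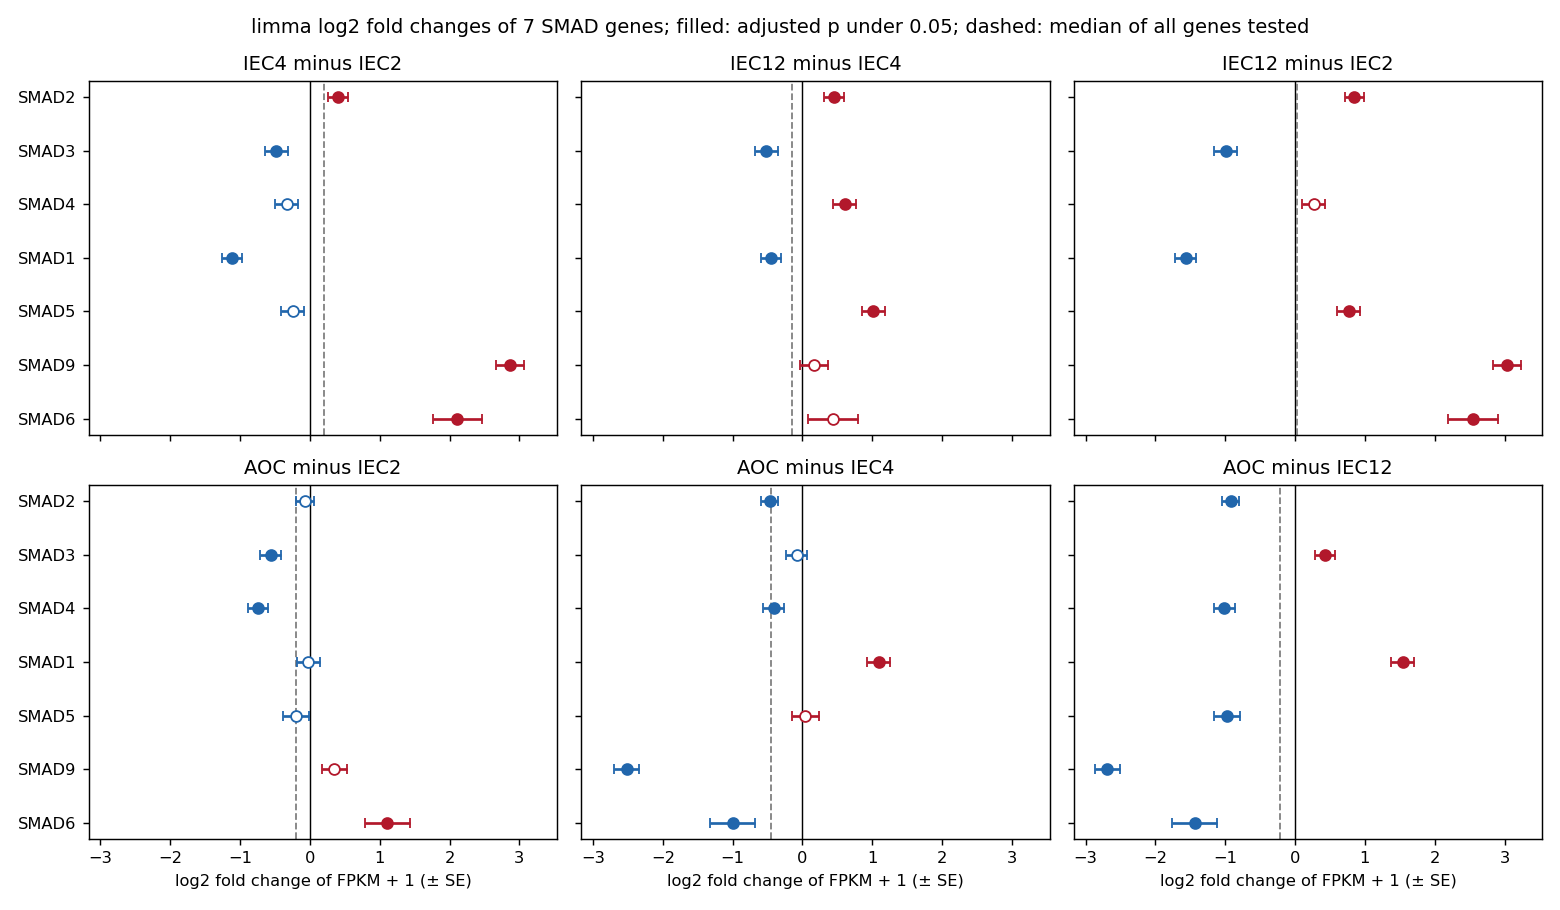
limma log2 fold changes of log2(FPKM + 1) with SE (horizontal axes) for the 7 tested SMAD genes in the 6 comparisons; filled points have an adjusted p under 0.05, and the dashed line is the median of all genes tested. SMAD9 lies at 2.87 and 3.04 against IEC2, SMAD1 lies below 0 between stages, and in AOC minus IEC4 SMAD2 and SMAD4 lie on the dashed line.

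Receptors act upstream of the SMADs. Of 12 type I and type II receptors 7 passed the filter in the induced stages and 8 with AOC. From IEC2 to IEC4, 3 of 7 rose and 3 fell, where 24.8% of all genes rose and 12.5% fell. From IEC4 to IEC12, 3 rose and none fell, where 17.3% of all genes rose and 26.9% fell. After median-of-ratios scaling the first step had 1 higher and 3 lower, and 1 of the 3 that fell, BMPR1B, would not have passed the filter without IEC2. At the second step 2 rose without any one library of IEC4 or without IEC12 replicate A or B, when BMPR2 did not pass. BMPR1A, a type I receptor for BMPs, was at 1.62, 1.58 and 1.22 FPKM in IEC2, 6.38, 6.77 and 7.77 in IEC4, 28.0, 20.0 and 16.0 in IEC12 and 0.234, 0.391 and 0.361 in AOC. Its log2 differences were 1.69 from IEC2 to IEC4 (limma adjusted p = 0.000274) and 1.45 from there to IEC12 (limma adjusted p = 0.000674), so that it rose at both steps. ACVR1, another type I receptor of the BMP branch, fell by 1.16 to IEC4 (limma adjusted p = 0.00176), rose by 1.22 to IEC12 (limma adjusted p = 0.00124) and was lower in AOC than in IEC12 by 3.40 (limma adjusted p = 2.78e-08).

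The type I and type II receptors for TGF-β moved in opposite directions at the first step. TGFBR2, the type II receptor for TGF-β, was at 7.08, 7.84 and 5.63 FPKM in IEC2, 2.36, 1.92 and 3.72 in IEC4, 2.15, 1.55 and 1.50 in IEC12 and 5.73, 8.19 and 8.10 in AOC. It fell by 1.12 from IEC2 to IEC4 (limma adjusted p = 0.00379) and was higher in AOC than in IEC12 by 1.60 (limma adjusted p = 4.75e-05). TGFBR1, the type I receptor, was at 2.57, 2.87 and 2.49 FPKM in IEC2, 5.23, 5.62 and 5.50 in IEC4, 7.69, 5.23 and 4.31 in IEC12 and 1.98, 3.40 and 3.30 in AOC. It rose by 0.83 from IEC2 to IEC4 (limma adjusted p = 0.00999), a call lost after median-of-ratios scaling (0.0615), and it was lower in AOC than in IEC12 by 0.78 (limma adjusted p = 0.00597). ACVR2A, a type II receptor for activin, rose by 0.77 from IEC2 to IEC4 (limma adjusted p = 0.0200), but lost its call after that scaling and without IEC2 replicate A or B or IEC4 replicate A or B (highest limma adjusted p, 0.0938). ACVRL1, the endothelial type I receptor, was at 1.24, 1.83 and 1.59 FPKM in AOC, was listed at 0 in all IEC2 libraries and stayed below 0.1 FPKM in IEC4 and IEC12. Against IEC12, AOC was higher for 2 of 8 receptors, TGFBR2 and ACVRL1, and lower for 6. Among all genes 22.4% were higher and 36.2% lower. ACVRL1 passed the filter only through AOC, and without it and BMPR1B 1 of 6 was higher and 5 were lower. With any one library of AOC left out, ACVRL1 no longer passed the filter.

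Anchoring and nuclear transport factors hold SMADs in place or carry them across the nuclear envelope. Of 10 such genes 8 were tested, and 1 rose and 1 fell from IEC2 to IEC4, where 24.8% of all genes rose and 12.5% fell. At the step from IEC4 to IEC12, 3 rose and 2 fell, where 17.3% of all genes rose and 26.9% fell. The 3 that rose became 1 under equal totals and without IEC4 replicate A or B or IEC12 replicate A or B, and the 2 that fell became 1 without IEC4 replicate A or B or IEC12 replicate B. XPO1, the exportin that carries SMADs among many other cargoes out of the nucleus, rose by 1.23 from IEC4 to IEC12 (limma adjusted p = 0.000301) and was lower in AOC than in IEC12 by 1.51 (limma adjusted p = 3.26e-06). RANBP3, which helps to export SMAD2 and SMAD3, fell by 1.65 from IEC4 to IEC12 (limma adjusted p = 0.00386). Against IEC12, 0 of 8 were higher in AOC and 5 lower, where 22.4% of all genes were higher and 36.2% lower as deposited. After median-of-ratios scaling 3 of the 5 were left, and the share of all genes under that scaling is not given here.

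Enzymes that modify SMADs were followed too. Of 17 ubiquitin ligases, deubiquitinases and phosphatases 12 were tested in the induced stages. From IEC2 to IEC4, 2 rose and none fell, where 24.8% of all genes rose and 12.5% fell. The 2 were USP4, by 1.21 (limma adjusted p = 0.00187), and ITCH, by 0.59 (limma adjusted p = 0.0238). ITCH lost its call after median-of-ratios scaling and without IEC2 replicate B or C or IEC4 replicate A or C (highest limma adjusted p over all alternatives, 0.219). From IEC4 to IEC12, 2 rose and 5 fell, where 17.3% of all genes rose and 26.9% fell. Among the 5 was USP11, a deubiquitinase, which fell by 1.68 (limma adjusted p = 0.0129). It was at 14.0, 14.4 and 9.05 FPKM in IEC4 and 0.907, 3.65 and 7.0 in IEC12, lowest in IEC12 replicate A. The 5 became 3 after median-of-ratios scaling and without IEC4 replicate A or IEC12 replicate B, and WWP2, 1 of the 5, would not have passed the filter without IEC4. PPM1A, a phosphatase of receptor SMADs, rose by 0.64 (limma adjusted p = 0.0129). The other gene that rose, the deubiquitinase USP15, lost its call under equal totals, with only the groups compared, with the replicate block and without IEC4 replicate B or C or any one library of IEC12 (highest limma adjusted p, 0.311).

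Co-repressors and co-activators set the output of SMAD complexes on DNA. Of 12 genes 9 were tested, and 3 rose and 1 fell from IEC2 to IEC4, where 24.8% of all genes rose and 12.5% fell. At the step from IEC4 to IEC12, 1 rose and 6 fell, where 17.3% of all genes rose and 26.9% fell. CREBBP, a co-activator, passed the filter only through IEC4, and without it 2 of 8 rose and 1 fell at the first step and 1 rose and 5 fell at the second. Without IEC4 replicate A or B 4 fell at the second step. TGIF1, a co-repressor of SMAD2 and SMAD3, rose by 1.41 (limma adjusted p = 0.000590) and then fell by 1.61 (limma adjusted p = 0.000301). SKIL, the co-repressor SnoN, rose by 0.75 (limma adjusted p = 0.00396) and by a further 0.54 (limma adjusted p = 0.0172). Its second step lost the call without IEC4 replicate A and under equal totals (highest limma adjusted p, 0.110). Against IEC12, 1 of 9 was higher in AOC and 5 were lower, where 22.4% of all genes were higher and 36.2% lower as deposited. After median-of-ratios scaling 2 of the 5 were left, and the share of all genes under that scaling is not given here.

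Several known target genes of the BMP branch rose at each step. Of 13 listed targets 7 passed the filter, and 4 rose and none fell from IEC2 to IEC4, where 24.8% of all genes rose and 12.5% fell. At the step from IEC4 to IEC12, 5 rose and none fell, where 17.3% of all genes rose and 26.9% fell. All 7 tested were higher in IEC12 than in IEC2, where 24.2% of all genes were higher. NOG, the BMP antagonist noggin, reached 1 FPKM only in IEC12, and without it 4 of 6 rose at each step and 6 of 6 were higher in IEC12 than in IEC2. ID3, an inhibitor of differentiation factors, was at 34.8, 15.7 and 24.9 FPKM in IEC2, 559, 512 and 753 in IEC4, 2716, 2678 and 2577 in IEC12 and 643, 758 and 613 in AOC. The 3 stages did not overlap, and AOC overlapped only IEC4. Its log2 differences were 4.59 to IEC4 (limma adjusted p = 3.27e-06) and 2.14 on to IEC12 (limma adjusted p = 0.000217). ID2, of the same family, rose by 3.83 from IEC2 to IEC4 (limma adjusted p = 8.51e-06). BAMBI, a decoy receptor for the family, rose by 3.10 from IEC4 to IEC12 (limma adjusted p = 4.77e-05).

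Against IEC12, 7 of 7 tested BMP targets were lower in AOC, where 36.2% of all genes were lower. Their median log2 difference was -2.60 beside -0.21 over all genes. The count was 6 with a pseudocount of 0.1, with only the groups compared and after median-of-ratios scaling. Without NOG it was 6 of 6, with a median of -2.84. ID1, the best-known BMP target, was at or near 0 in every library, with a highest value of 0.0142 FPKM.

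Of 15 listed targets of TGF-β and activin 9 were tested in the induced stages. From IEC2 to IEC4, 5 rose and 1 fell, where 24.8% of all genes rose and 12.5% fell. At the step from IEC4 to IEC12, 1 rose and 6 fell, where 17.3% of all genes rose and 26.9% fell. ITGB6 and LEFTY2 passed the filter only through IEC4, and LTBP2 only through 1 library of IEC4 and 2 of IEC12. Without these 3 genes 3 of 6 rose and 1 fell at the first step and 1 rose and 4 fell at the second. The 5 of 9 that rose at the first step became 3 of 7 without IEC4 replicate A and 3 of 6 without replicate C. CCN2, the connective tissue growth factor, was at 137, 102 and 114 FPKM in IEC2, 2.89, 3.57 and 18.0 in IEC4, 2.78, 2.84 and 3.22 in IEC12 and 227, 310 and 255 in AOC. It was the gene that fell to IEC4, by 4.08 (limma adjusted p = 0.000222), and it was higher in AOC than in IEC12 by 6.06 (limma adjusted p = 3.78e-07). CDKN2B, a cell cycle inhibitor, rose by 2.25 to IEC4 (limma adjusted p = 0.00116). The 1 gene that rose to IEC12 was SKIL, which stands in this list and among the co-repressors.

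ITGB6, an integrin subunit of epithelia, was at 3.83, 2.17 and 27.1 FPKM in IEC4 and listed at 0 in all other libraries. Its highest value was in replicate C, the library with the most epithelial transcripts. Against IEC12, 5 of 10 tested targets were higher in AOC and 1 was lower, with a median log2 difference of 1.22. Among all genes 22.4% were higher and 36.2% lower. Without ITGB6, LEFTY2 and TGFBI, the last of which would not have passed the filter without AOC, 4 of 7 were higher and 1 was lower. The lists were chosen with earlier results of these data known. The share of all genes that passed in each direction is given above for each comparison, as deposited only.

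**Figure D5:**
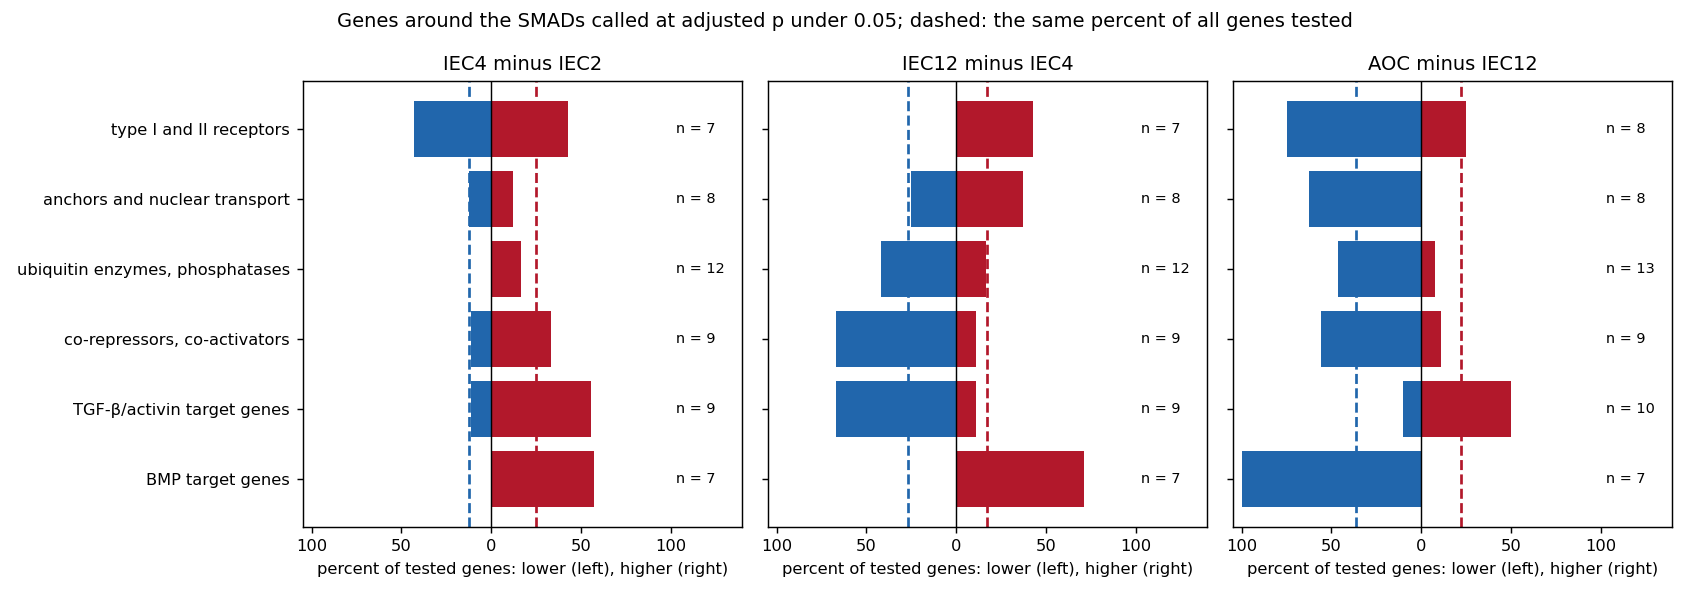
Percent of the tested genes of 6 lists around the SMADs that were called lower (blue, left of 0) or higher (red, right of 0) at an adjusted p under 0.05 in 3 comparisons; n is the number tested and the dashed lines are the percent of all genes tested. Of the 7 tested BMP targets 5 rose from IEC4 to IEC12 and none fell, while 6 of the 9 tested TGF-β/activin targets fell; without genes that needed 1 group to pass the filter these were 4 of 6 and 4 of 6.

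For the tested SMAD genes whose highest and lowest group differed by over 1 on the log2 scale, the genes nearest in pattern were sought among 9158 genes over the 12 libraries, as the root mean square difference of log2(FPKM + 1) after centring each gene on its mean. The nearest to SMAD1 was TGFBR2 (0.23), followed by ARPC2 and EXOC6B. The nearest to SMAD4 was CAB39 (0.11), and the nearest to SMAD5 was SMC6 (0.16). SMAD9 was nearest to STON2 (0.27), which was at a mean of 0.632 FPKM in IEC2, 8.80 in IEC4, 7.92 in IEC12 and 1.01 in AOC. SMAD6 was nearest to EFNA1 (0.30), the ligand ephrin-A1, at a mean of 2.80, 22.7, 33.0 and 8.56 FPKM in the same order. The libraries of a group are not independent points for such a measure, and it carries no test.

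In the RefSeq annotation of Sscrofa11.1, 5 of the 8 genes lay on chromosome 1. SMAD2 (chr1:97415360-97511388), SMAD7 (chr1:98512800-98543924) and SMAD4 (chr1:100521843-100633501) lay within 3.22 Mb. SMAD6 (chr1:164652602-164735084) and SMAD3 (chr1:164998457-165124455) were neighbours, with 263.4 kb between them, and moved in opposite directions from IEC2 to IEC4. SMAD5 lay on chromosome 2 (chr2:138287635-138344092), SMAD1 on chromosome 8 (chr8:82907557-82987909) and SMAD9 on chromosome 11 (chr11:12705652-12727981). Spans of annotated genes overlapped SMAD1 (the lncRNA LOC102165892, 43086 bases), SMAD3 (AAGAB, 1450 bases) and SMAD4 (ELAC1, 14737 bases, and LOC102159046, 35952 bases). Whether the counting used strand is not given in the sources used here, so reads of these partners could have entered the values of SMAD1, SMAD3 and SMAD4.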

How the data were processed

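The RNA had been amplified by the Smart-Seq2 protocol and sequenced on an Illumina instrument. The authors worked on the Galaxy platform and deposited tables of FPKM, each holding the genes of 1 library. The submitters' processing notes name Bowtie2 2.2.3, TopHat2 2.0.12, Cufflinks 2.2.1 and the build susScr11. The annotation release and any scaling between libraries are not given in the sources used here. Full-length amplification of small inputs can lose low transcripts, and no interval from counts is given as reads are unknown.

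Members and gene lists were chosen with earlier results of these data known. Symbols came from a table of Ensembl identifiers and positions from RefSeq (Sscrofa11.1). Genes that reached 1 FPKM in 3 or more libraries of the fit were tested with limma 3.58.1 (R 4.3.3) on log2(FPKM + 1), with variance tied to expression. The 9 IEC libraries (10542 genes) gave the contrasts between stages and all 12 libraries (11053 genes) those with AOC. P-values were adjusted by Benjamini-Hochberg over all genes tested, and a call needed an adjusted p under 0.05. Fits were tested on simulated data. Named genes were all SMAD genes, and in each list up to 3 called genes per direction and comparison with the largest changes and no overlap of libraries, of which some are reported here. ID1, POLR2A, RPS2, RPLP0, CDH1, PECAM1, KLF4, LIN28A, CLDN6, KRT8, ESRP1 and TFAP2A were named after their values were seen. Counts of the lists without genes that needed 1 group to pass the filter were added after the data were seen, and NOG, BMPR1B, LTBP2 and TGFBI were named for that reason. Tables and figures used Python 3.11.15, NumPy 2.4.6, pandas 2.3.3 and matplotlib 3.10.9.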

Additional observations from a re-analysis of the deposited data

How the results depend on the processing

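Over the 7 tested SMAD genes and 6 comparisons, 510 of 566 alternative values kept their side of the threshold, 49 lost the call, 6 gained it and 1 turned sign. The last was SMAD4 in AOC minus IEC4, 0.042 after median-of-ratios scaling (-0.41 as deposited). Signs were compared only where at least 1 of the values was called, so the 510 can hold uncalled values that changed sign. Calls of SMAD genes numbered 5 (IEC4 minus IEC2), 5 (IEC12 minus IEC4), 6 (IEC12 minus IEC2), 3 (AOC minus IEC2), 5 (AOC minus IEC4) and 7 (AOC minus IEC12). Under the limits of the study these were 0, 0, 1, 0, 0 and 0. For IEC4 minus IEC2 the count was 3 with only the groups compared and 3 to 4 with 1 library left out. For IEC12 minus IEC4 it was 3 after median-of-ratios scaling, 3 under equal totals and 1 to 4 with 1 library left out. AOC minus IEC2 gave 5 under equal totals, and AOC minus IEC4 gave 2 after median-of-ratios scaling. The cause of these shifts was not tested. A pseudocount of 0.1 raised the log2 difference of IEC4 from IEC2 to 4.04 for SMAD6 and 4.58 for SMAD9.

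Whether the letters A, B and C pair the libraries is not given. Correlations of deviations between same-lettered libraries ran from -0.51 to 0.25. Libraries correlated best with their own letter in 0 to 5 of 6 cases per comparison, 4 of 6 for IEC12 minus IEC2 and 5 of 6 for AOC minus IEC4. With 3 libraries in a group, this check cannot exclude a pairing. With the replicate block the counts of calls were 3, 4, 6, 3, 5 and 7 in the order above. SMAD2 and SMAD3 (IEC4 minus IEC2) and SMAD1 (IEC12 minus IEC4) were no longer called (limma adjusted p = 0.0808, 0.0681 and 0.0527). For the surrounding lists, alternatives chosen after seeing the data left 929 of 1044 counts within 1.5 times and 814 of 869 named-gene calls in place, and no sign turned. Tools for counts were not run, since the values are FPKM. Depth beyond a relative estimate is unknown, which limits what can be said of SMAD7 and of SMAD6 and SMAD9 in IEC2.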
